A study of Mus musculus with 6 samples.

Results

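Wdfy1 and 9 genes of Toll-like receptor (TLR) signalling were examined in infarcted mouse hearts. The 10 genes were taken by name from a deposited table of 54532 genes: the adaptor gene Wdfy1, the receptor genes Tlr3, Tlr4, Tlr2, Tlr7 and Tlr9, the adaptor genes Ticam1 and Myd88, the kinase gene Tbk1 and the transcription factor gene Irf3. All 10 were found, and all 10 passed the filter on low values that left 15520 genes. Wdfy1 was selected on its FPKM values in these same libraries, which differed between the genotypes, so its values are given as a description with no test. The other 9 genes were named for their place in the pathway. The question was whether the higher Wdfy1 level went with the receptors TLR3 and TLR4 and with their adaptors.

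Heart tissue from the infarct and its border was sequenced from 3 WT mice and from 3 Crlf2-/- mice, with 1 library per mouse, on day 7 after permanent ligation of the left anterior descending coronary artery. Every mouse of both groups had this myocardial infarction (MI), and no sham-operated heart was among these libraries. The study's methods describe bought young adult male C57BL/6J mice. The Crlf2-/- mice, labelled TSLPR KO, were made by another company on a C57BL/6J background and carry a knockout of the receptor for thymic stromal lymphopoietin, for which no tissue-specific driver is named. Whether the WT hearts came from the bought mice or from littermates is not stated in the sources used here, and if they were bought, source and genotype cannot be told apart.

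Toll-like receptors recognise parts of microbes and of damaged cells. TLR2 and TLR4 act at the cell surface, whereas TLR3, TLR7 and TLR9 bind nucleic acids in endosomes. Most of them signal through MyD88 to NF-kB, while TLR3 uses TRIF, the product of Ticam1, and TLR4 uses both. TRIF leads through the kinase TBK1 to the transcription factor IRF3 and to type I interferon and interferon-stimulated genes. WDFY1, a protein with WD repeats and a FYVE domain that binds endosomal membranes, has been described as a protein that brings TRIF to TLR3 and TLR4.

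The libraries held 18508646 to 19682428 fragments assigned to genes, and the groups overlapped in depth. Levels are given in FPKM, a fragment count scaled to gene length and library size. The targeted gene, Crlf2, was counted at 917, 813 and 707 fragments in the WT hearts and at 437, 651 and 667 fragments in the Crlf2-/- hearts. The groups did not overlap, but Crlf2 transcripts remained in every Crlf2-/- library, and a value per gene cannot tell the exons apart. Its log2 difference was -0.52 (SE 0.17, adjusted p = 0.521, limma). Retinal markers, checked because 1 label mentions retina, reached at most 10 fragments per gene and library, and cardiomyocyte markers were present in every library. All 8 cardiomyocyte markers had lower means in Crlf2-/- hearts (median log2 difference -0.59, 3 of 8 at an unadjusted p under 0.05, against 3.36% of all tested genes lower at that threshold). They summed to 283 to 477 FPKM in WT and 164 to 362 FPKM in Crlf2-/- hearts, and their part in the results that follow was not tested.

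Wdfy1 was expressed about 4 times higher in each Crlf2-/- heart than in the WT hearts. Wdfy1 (ENSMUSG00000073643) spans bases 79702262 to 79776143 of chromosome 1 on the minus strand (GRCm38). Its level was 2.03, 2.45 and 2.49 FPKM in the WT hearts and 10.2, 9.75 and 9.53 FPKM in the Crlf2-/- hearts. The 2 groups were far apart, and the mice of each group lay close together. The WT mean was 2.32 ± 0.256 FPKM (SD, n = 3) and the Crlf2-/- mean 9.83 ± 0.355 FPKM, a ratio of 4.23. These values rested on 303 to 353 fragments per WT library and 1393 to 1476 per Crlf2-/- library. The fitted log2 difference, on the log2(FPKM + 0.1) scale, was 2.04 (SE 0.12, 95% interval 1.78 to 2.31), and with any 1 library left out it stayed between 1.96 and 2.09. These numbers describe the contrast by which Wdfy1 was chosen, and the interval takes no account of that choice.

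The annotation (GENCODE M21) gives Wdfy1 14 transcripts, of which 9 are protein coding, and 7 of the coding transcripts begin at 79761769. The table holds 1 value per gene, so the transcripts behind the higher level were not resolved. The 5′ end of Wdfy1 shares 126 exonic bases with Mrpl44, a mitochondrial ribosomal protein gene on the opposite strand. Mrpl44 had 9.88, 10.1 and 7.93 FPKM in WT and 7.60, 10.5 and 9.07 FPKM in Crlf2-/- hearts, and these ranges overlapped.

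None of the 5 receptor genes was called different, and the values of the 2 genotypes overlapped for each. A gene was called when its adjusted p did not exceed 0.05 and its log2 difference was 0.5 or more in size, by limma on log2(FPKM + 0.1) with Benjamini-Hochberg adjustment over all tested genes. By this rule 2 of 15520 genes were called, which is 0.0129%. The study reported far more genes at the same thresholds with a count test (DESeq2). A gene left uncalled here is therefore not shown to be unchanged.

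Tlr3 (ENSMUSG00000031639, chromosome 8, 45395665 to 45411080, minus strand) encodes the endosomal receptor for double-stranded RNA. It had 4.54, 3.82 and 5.88 FPKM in WT and 5.96, 5.56 and 6.09 FPKM in Crlf2-/- hearts. WT replicates 1 and 2 lay below all Crlf2-/- hearts, and WT replicate 3 lay among them. Tlr3 differed by 0.32 on the log2 scale (SE 0.16, 95% interval -0.05 to 0.70, adjusted p = 0.820, limma). The alternative test, a negative binomial Wald test of fragment counts, gave 0.31 (95% interval 0.01 to 0.61, adjusted p = 0.518). Without WT replicate 3 the limma difference was 0.49, with an adjusted p of 0.402 (limma).

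Tlr4 (ENSMUSG00000039005, chromosome 4, 66827584 to 66930284, plus strand), the receptor for bacterial lipopolysaccharide, had 8.50, 7.08 and 8.99 FPKM in WT and 9.66, 7.38 and 7.27 FPKM in Crlf2-/- hearts. Crlf2-/- replicate 1 held the highest value and the other Crlf2-/- hearts lay near the lowest WT heart. Tlr4 had a log2 difference of -0.02 (95% interval -0.36 to 0.33, adjusted p = 0.996, limma). Its sign depended on single libraries, since leaving out 1 library gave values from -0.15 to 0.05.

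Tlr2 (ENSMUSG00000027995, chromosome 3, 83836272 to 83841767, minus strand), which recognises bacterial lipoproteins, was the most abundant of the 10 genes in every library. It had 25.4, 21.7 and 23.9 FPKM in WT and 24.1, 24.5 and 21.3 FPKM in Crlf2-/- hearts. Tlr2 had a log2 difference of -0.02 (95% interval -0.27 to 0.23, adjusted p = 0.996, limma), and its sign turned without WT replicate 1 or without Crlf2-/- replicate 3.

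The remaining endosomal receptors were both higher on average in Crlf2-/- hearts, with overlapping groups. Tlr9 (ENSMUSG00000045322, chromosome 9, 106222598 to 106226883, plus strand), the receptor for unmethylated CpG DNA, had 4.27, 4.68 and 7.40 FPKM in WT and 7.32, 7.78 and 10.1 FPKM in Crlf2-/- hearts. WT replicate 3 alone reached the range of the Crlf2-/- hearts. Tlr9 had a log2 difference of 0.64 (SE 0.22, 95% interval 0.15 to 1.14, adjusted p = 0.554, limma). The negative binomial Wald test gave Tlr9 an adjusted p of 0.0590. Without WT replicate 3 the log2 difference was 0.88 and the adjusted p 0.149 (limma).

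Tlr7 (ENSMUSG00000044583, chromosome X, 167304929 to 167330558, minus strand), the receptor for single-stranded RNA, had 20.1, 15.5 and 15.5 FPKM in WT and 20.2, 19.0 and 17.4 FPKM in Crlf2-/- hearts. WT replicate 1 lay at the level of the highest Crlf2-/- heart. Tlr7 had a log2 difference of 0.16 (95% interval -0.15 to 0.46, adjusted p = 0.952, limma).

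Most of these receptors are carried by myeloid cells, and in bulk tissue fewer cells of a type and less RNA per cell cannot be told apart. Of 10 markers of monocytes and macrophages, 9 had a positive log2 difference. At an unadjusted p under 0.05 there were 2, Ly6c2 and Fcgr1, both higher in Crlf2-/- hearts, where 3.22% of all tested genes were higher at that threshold. The negative binomial Wald test called Ly6c2 (adjusted p = 0.0288), and it called 1.48% of all tested genes. The summed level of the list ran from 1699 to 3095 FPKM in WT and from 1822 to 2632 FPKM in Crlf2-/- hearts, so the ranges overlapped. All 7 dendritic cell markers had lower means in Crlf2-/- hearts (median log2 difference -0.20). Zbtb46 and Cd209a were at an unadjusted p under 0.05 (limma), against 3.36% of all tested genes lower at that threshold. The negative binomial Wald test called Cd209a (adjusted p = 0.0193). This list summed to 14.1 to 18.1 FPKM in WT and 9.75 to 14.9 FPKM in Crlf2-/- hearts. The 4 tested markers of plasmacytoid dendritic cells, which express Tlr7 and Tlr9, had a median log2 difference of 0.16, and the list summed to 115 to 142 FPKM in WT and 143 to 268 FPKM in Crlf2-/- hearts. Bst2 made up most of this sum. Its values were 135, 108 and 119 FPKM in WT and 135, 261 and 208 FPKM in Crlf2-/- hearts, which overlapped, and the negative binomial Wald test called it (adjusted p = 0.0193, against 0.551 by limma). Siglech, a more specific marker of these cells, had a mean of 0.483 FPKM in WT and 0.473 FPKM in Crlf2-/- hearts. B cells also express Tlr9, and the list of their 6 markers summed to 7.28 to 9.34 FPKM in WT and 6.70 to 10.8 FPKM in Crlf2-/- hearts. The part of these cells in the receptor levels was not tested.

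Ticam1 and Myd88, the genes of the adaptors TRIF and MyD88, had nearly equal means in the 2 genotypes, and neither was called. Ticam1 (ENSMUSG00000047123, chromosome 17, 56269319 to 56276786, minus strand) encodes TRIF. It had 5.85, 6.51 and 6.27 FPKM in WT and 5.95, 5.34 and 6.06 FPKM in Crlf2-/- hearts. The log2 difference was -0.10 (SE 0.11, 95% interval -0.34 to 0.15, adjusted p = 0.985, limma). Ticam1 thus had the lowest of the 10 levels in every Crlf2-/- library, the place that Wdfy1 held in every WT library.

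Myd88 (ENSMUSG00000032508, chromosome 9, 119335934 to 119341411, minus strand), the adaptor of most TLRs, had 20.4, 19.6 and 16.4 FPKM in WT and 16.8, 20.3 and 16.4 FPKM in Crlf2-/- hearts. The groups overlapped over almost their whole range. The log2 difference was -0.08 (95% interval -0.37 to 0.22, adjusted p = 0.995, limma).

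Neither Tbk1 nor Irf3, which act downstream of TRIF, was called. Tbk1 (ENSMUSG00000020115, chromosome 10, 121546455 to 121586787, minus strand), the kinase that phosphorylates IRF3, had 10.9, 9.99 and 9.47 FPKM in WT and 11.5, 10.8 and 10.5 FPKM in Crlf2-/- hearts. Its log2 difference was 0.11 (95% interval -0.12 to 0.35, adjusted p = 0.965, limma). Irf3 (ENSMUSG00000003184, chromosome 7, 44997648 to 45002848, plus strand) had 8.66, 8.50 and 7.49 FPKM in WT and 6.39, 8.85 and 8.39 FPKM in Crlf2-/- hearts. Crlf2-/- replicate 1 was the lowest of the 6 and the other Crlf2-/- hearts lay among the WT hearts. The log2 difference of Irf3 was -0.07 (95% interval -0.39 to 0.26, adjusted p = 0.996, limma), and without Crlf2-/- replicate 1 it was 0.07. These are transcript levels, and the activity of TBK1 and IRF3 depends on phosphorylation, which was not measured.

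**Figure D1:**
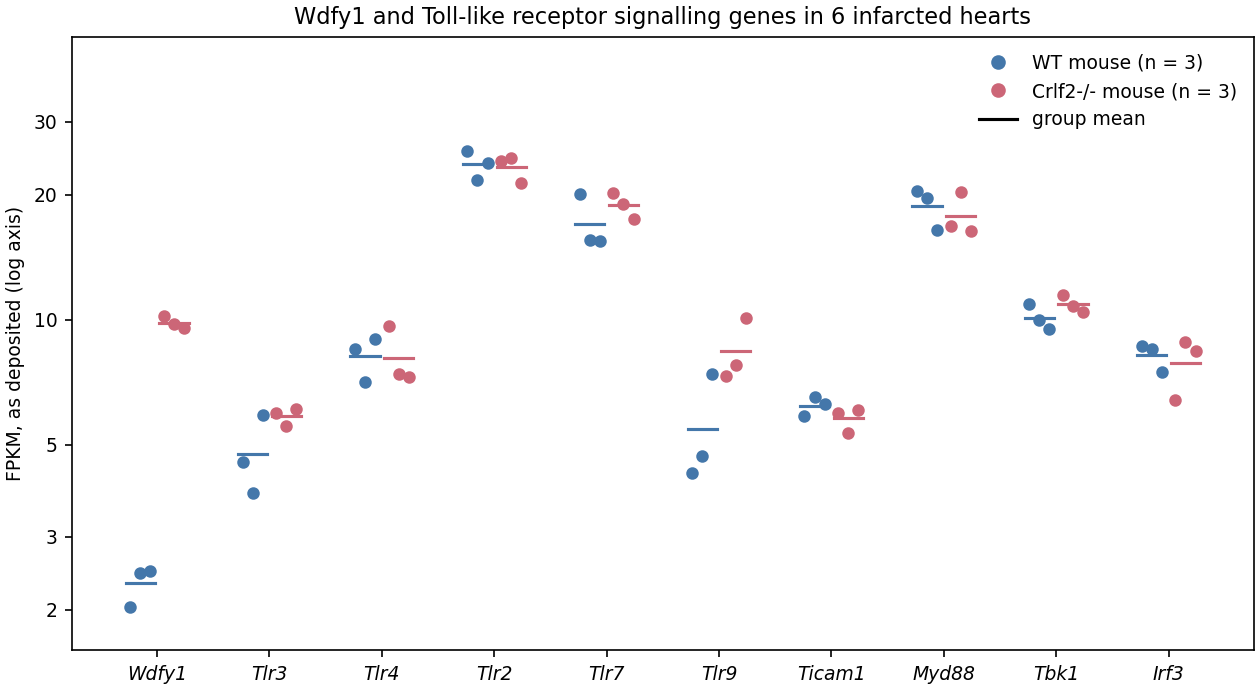
Level of each of the 10 genes in FPKM as deposited (log axis). Each point is 1 mouse, blue for WT and red for Crlf2-/-, and the bar is the group mean. Wdfy1 lies between 2.03 and 2.49 FPKM in WT and between 9.53 and 10.2 FPKM in Crlf2-/- hearts, and the points of the 2 genotypes overlap for each of the other 9 genes.

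Over the 9 genes other than Wdfy1, limma, voom and the negative binomial Wald test each called 0, where voom called 0.0193% and the negative binomial Wald test 1.48% of all tested genes. For all 9 genes the genotypes overlapped, while 11.7% of all tested genes had groups that did not overlap. At an unadjusted p under 0.05 there was 1 of 9, Tlr9 with a limma p of 0.0170, against 6.58% of all tested genes. Their median log2 difference was -0.02, and that of all tested genes was -0.0042. With 3 mice against 3, an exact permutation test of 1 gene cannot go below p = 0.1. The highest upper end among the 95% intervals of the 9 genes was 1.14, for Tlr9. Differences inside these intervals were not excluded. The intervals are no limit of detection, since Tlr9 was not called although its limma interval, 0.15 to 1.14, lay above 0.

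**Figure D2:**
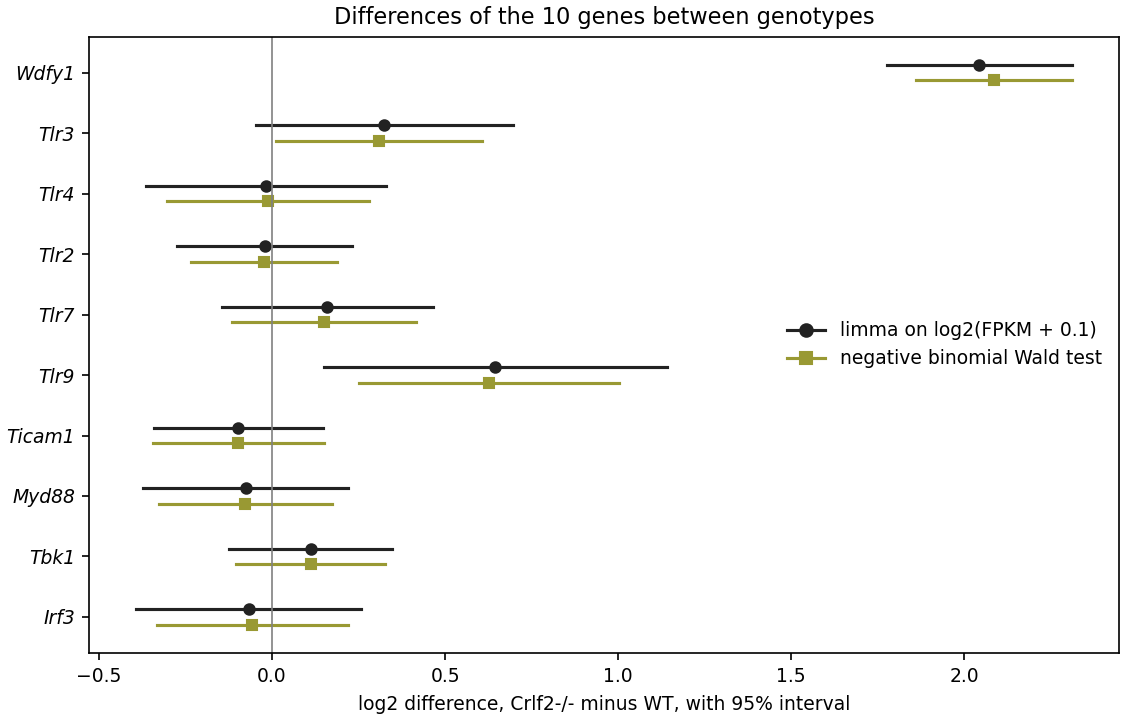
Log2 difference of each of the 10 genes, Crlf2-/- minus WT, with its 95% interval, from limma (black circles) and from the negative binomial Wald test (olive squares). Wdfy1 stands at 2.04 by limma, Tlr9 is next at 0.64, and the limma intervals of the other 8 genes include 0. By the negative binomial Wald test the interval of Tlr3, 0.01 to 0.61, also lies above 0.

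The order of the 10 levels is a description, since it carries the contrast that chose Wdfy1. Ranked by mean FPKM, the WT order was Tlr2, Myd88, Tlr7, Tbk1, Irf3, Tlr4, Ticam1, Tlr9, Tlr3 and Wdfy1. Wdfy1 stood in place 10 in each WT library, below the lowest value of Tlr3. In Crlf2-/- hearts the order was Tlr2, Tlr7, Myd88, Tbk1, Wdfy1, Tlr9, Tlr4, Irf3, Tlr3 and Ticam1, and Wdfy1 took place 5, 5 and 6. Neighbours whose ranges overlapped were Myd88 and Tlr7, Irf3 and Tlr4, Ticam1 and Tlr9, and Tlr9 and Tlr3 in WT. In Crlf2-/- hearts they were Tlr7 and Myd88, Wdfy1 and Tlr9, Tlr9 and Tlr4, Tlr4 and Irf3, and Tlr3 and Ticam1.

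Set against its partners within each library, Wdfy1 moved from below to above them. The ratio of Wdfy1 to Ticam1 in FPKM was 0.374 ± 0.0253 in the WT hearts and 1.70 ± 0.128 in the Crlf2-/- hearts (SD, n = 3). The ratio to Tlr3 was 0.504 ± 0.120 in WT and 1.68 ± 0.101 in Crlf2-/- hearts, and that to Tlr4 was 0.287 ± 0.0549 and 1.23 ± 0.149. These ratios carry the contrast by which Wdfy1 was chosen and are a description. They compare transcripts per length and do not give amounts of protein.

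The wider pathway was followed in 102 genes in 10 lists by role, of which 99 passed the filter. Sarm1 and Ifnb1 did not pass, and Hgs was listed at 0 in every library. Without Wdfy1, limma called 0 of 98 genes, where 17 higher and 3 lower genes had an unadjusted p under 0.05. Over all tested genes these shares were 3.22% higher and 3.36% lower. The groups did not overlap for 17 higher and 4 lower of the 98 genes, against 11.7% of all tested genes in either direction. The negative binomial Wald test called 9 of the 98, which is 9.18%, against 1.48% of all tested genes (0.799% higher and 0.677% lower). The 8 that were higher in Crlf2-/- hearts were Irf7, Ifit1, Isg15, Ptgs2, Ddx58, Ifih1, Dhx58 and Zbp1, and Ccl5 was lower. The lists were written with earlier results of these data known, so these shares are a description and no test of the pathway.

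The lists upstream of the target genes had medians between -0.06 and 0.14. The 12 receptor genes had a median log2 difference of 0.14 and a range from -0.80 for Tlr12, with 2 to 32 fragments per library, to 0.64 for Tlr9. Tlr1 and Tlr9 were at an unadjusted p under 0.05, against 6.58% of all tested genes. Tlr1, the partner of TLR2 for triacylated lipopeptides, had a mean of 5.26 ± 0.404 FPKM (SD, n = 3) in WT and 7.00 ± 1.15 FPKM in Crlf2-/- hearts, a log2 difference of 0.40 (adjusted p = 0.620, limma). Tlr13, which recognises bacterial ribosomal RNA, was as abundant as Tlr2, with means of 23.8 and 26.2 FPKM.

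The 10 genes for co-receptors and trafficking had a median of -0.04. Unc93b1, which carries the endosomal receptors to their compartment, had a mean of 69.5 ± 7.57 FPKM in the WT hearts and one of 75.5 ± 8.26 FPKM in the Crlf2-/- hearts (SD, n = 3), with overlapping groups. Hsp90b1, the chaperone of many TLRs, had a log2 difference of -0.10. Cd180, a TLR-like protein of B cells and macrophages, was at 0.45 and Cd36, a scavenger receptor and co-receptor of TLR2, at -0.37, each with groups that did not overlap and an adjusted p above 0.5 (0.542 and 0.619, limma).

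The adaptors other than Wdfy1 had a median of -0.06. Pik3ap1, the adaptor BCAP that links TLRs to phosphoinositide 3-kinase, had 22.3, 16.1 and 21.2 FPKM in WT and 25.6, 26.8 and 30.9 FPKM in Crlf2-/- hearts. All 3 Crlf2-/- hearts lay above the WT hearts, with a log2 difference of 0.49 (adjusted p = 0.469, limma). The 16 kinases and ubiquitin ligases had a median of 0.07 and the 10 inhibitors one of -0.02, and no gene of either list was called by limma, voom or the negative binomial Wald test. Nfkbia, the NF-kB inhibitor that NF-kB itself induces, was within 27.9 to 29.1 FPKM in all 6 hearts. Rela, the p65 subunit of NF-kB, was within 27.6 to 29.5 FPKM. The 10 MyD88 and NF-kB target genes had a median of -0.01, with Il1b and Ccl2 overlapping between the genotypes. Ptgs2, which encodes cyclooxygenase-2, was the 1 target gene of this list with an unadjusted p under 0.05, at 2.10, 2.44 and 1.80 FPKM in WT and 4.15, 4.48 and 2.69 FPKM in Crlf2-/- hearts.

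The highest list medians were those of the interferon-linked target genes and of the cytosolic sensor list. The 7 tested TRIF and IRF3 target genes had a median log2 difference of 0.99, and the 7 genes listed for cytosolic nucleic acid sensing had one of 0.61. That second list, drawn up for sensors that share TBK1, also holds the adaptor gene Mavs. No gene of either list passed limma's threshold. These medians describe lists written with earlier results known and carry no test.

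Dhx58, which encodes the RIG-I-like protein LGP2, had the smallest p of the pathway genes other than Wdfy1. It had 4.26, 2.92 and 3.93 FPKM in WT and 6.96, 9.17 and 8.45 FPKM in Crlf2-/- hearts. Every Crlf2-/- heart lay above every WT heart. The log2 difference was 1.14 (SE 0.17), with an adjusted p of 0.109 by limma and 1.63e-08 by the negative binomial Wald test. The Wald test called 229 of all tested genes where limma called 2, and its p-values can be too small with 3 mice per group.

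Ifih1, which encodes the RNA sensor MDA5, had 3.95, 3.60 and 5.13 FPKM in WT and 7.18, 8.27 and 8.19 FPKM in Crlf2-/- hearts (log2 difference 0.90, SE 0.15). Ddx58, which encodes RIG-I, had 9.70, 9.09 and 11.6 FPKM in WT and 15.2, 16.5 and 14.7 FPKM in Crlf2-/- hearts (0.61, SE 0.12). Zbp1, a sensor of Z-form nucleic acids, had 5.32, 4.33 and 6.86 FPKM in WT and 8.53, 15.4 and 10.9 FPKM in Crlf2-/- hearts (1.05, SE 0.24). None of the 3 genes overlapped between the genotypes, and 11.7% of all tested genes did not overlap either. Their adjusted p-values were 0.132, 0.191 and 0.258 by limma. Tmem173, which encodes STING, was in the same list with means of 27.2 ± 2.02 FPKM in the WT hearts and 27.3 ± 1.12 FPKM in the Crlf2-/- hearts (SD, n = 3), with overlapping groups. Mavs, the adaptor of RIG-I and MDA5, had a log2 difference of -0.22 (unadjusted p = 0.0918, limma).

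Irf7, the interferon-induced relative of IRF3, differed most among the transcription factors. It had 16.0, 12.2 and 18.6 FPKM in WT and 25.5, 53.9 and 46.7 FPKM in Crlf2-/- hearts. Crlf2-/- replicate 1 lay nearest to the WT hearts and still above them. The log2 difference was 1.38 (SE 0.28), with an adjusted p of 0.223 by limma. Without Crlf2-/- replicate 1 it was 1.70 with an adjusted p of 0.0349 (limma), the 1 pathway gene beside Wdfy1 that any left-out library brought past the threshold. Irf3, by contrast with Irf7, had overlapping groups in the values above.

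Among the target genes, Isg15, which encodes a ubiquitin-like modifier, had 40.4, 31.0 and 29.6 FPKM in WT and 46.6, 109 and 85.4 FPKM in Crlf2-/- hearts. Ifit1, which encodes a protein that binds viral RNA caps, had 23.5, 12.6 and 20.9 FPKM in WT and 30.2, 43.9 and 36.5 FPKM in Crlf2-/- hearts. Ifit3, its partner, had 33.7, 21.8 and 32.6 FPKM in WT and 40.0, 72.4 and 65.4 FPKM in Crlf2-/- hearts. For these 3 genes the groups did not overlap, as for 11.7% of all tested genes, and Crlf2-/- replicate 1 was in each case the lowest of its group. The log2 differences were 1.18, 0.99 and 1.00, with adjusted p-values of 0.324, 0.321 and 0.337 (limma).

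Ccl5, a chemokine gene that T cells also express, went the other way. It had 8.37, 12.9 and 12.4 FPKM in WT and 6.29, 5.27 and 6.75 FPKM in Crlf2-/- hearts, a log2 difference of -0.85 (adjusted p = 0.245, limma). Of 7 T cell markers, 6 were lower in Crlf2-/- hearts at an unadjusted p under 0.05, against 3.36% of all tested genes, and the list summed to 14.3 to 21.7 FPKM in WT and 8.49 to 10.7 FPKM in Crlf2-/- hearts. Their part in the Ccl5 value was not tested. Ifnb1, the interferon gene that IRF3 controls, had 1, 1 and 0 fragments in the WT libraries and none in the Crlf2-/- libraries.

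**Figure D3:**
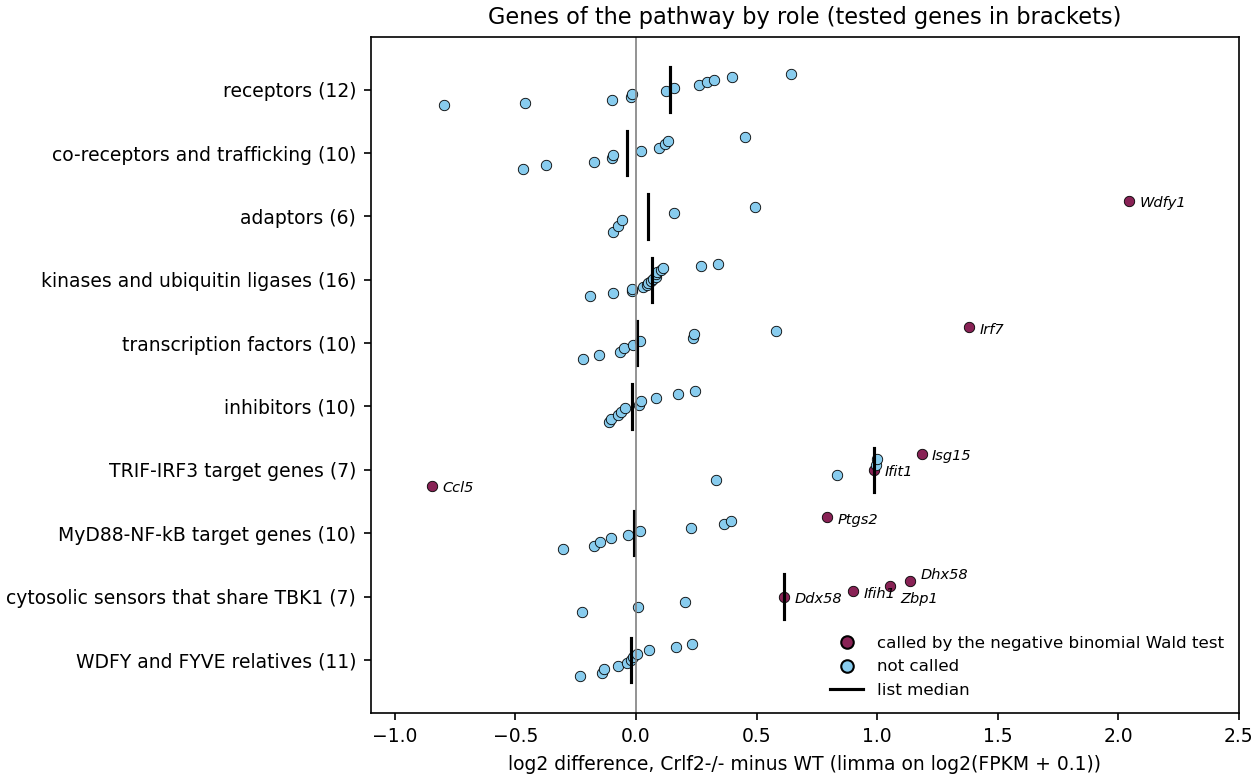
Log2 difference (Crlf2-/- minus WT, limma) of each tested pathway gene, in rows by role with the number of genes in brackets. Dark points are the genes the negative binomial Wald test called and black bars the list medians. The medians of the target genes of TRIF and IRF3 (0.99) and of the cytosolic sensors (0.61) lie to the right of the other lists, whose medians run from -0.04 to 0.14.

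**Figure D4:**
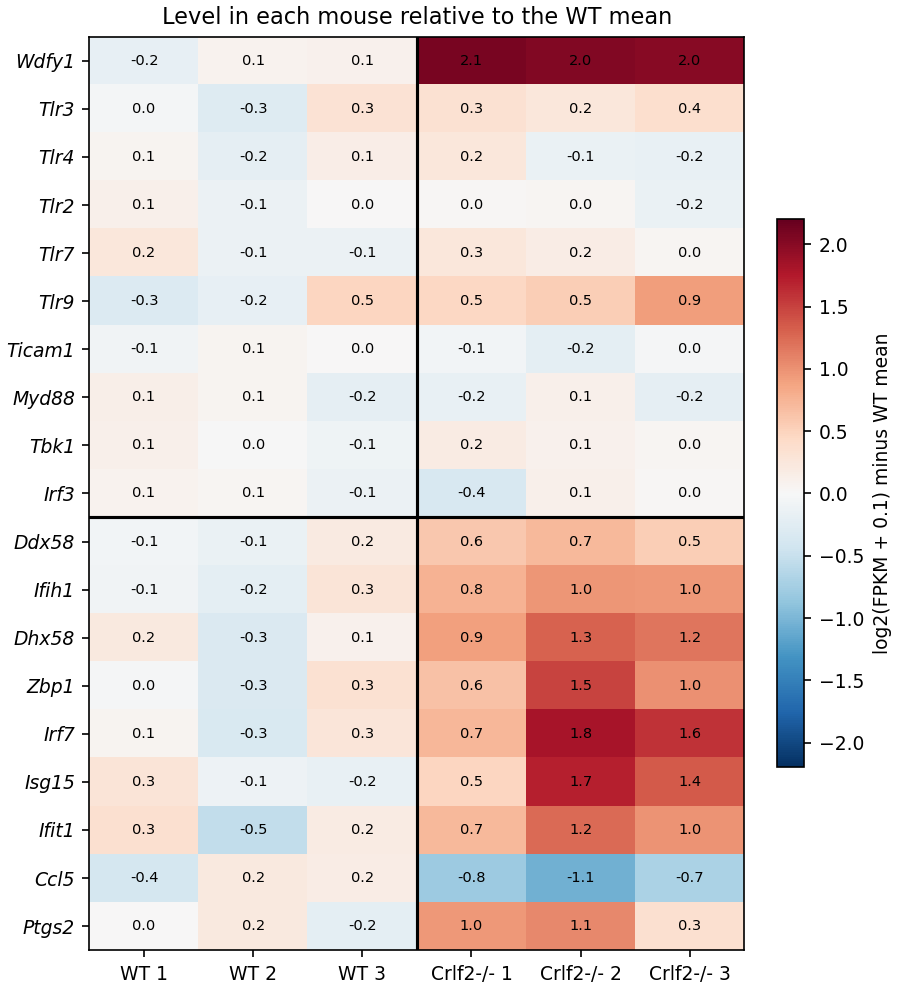
Log2(FPKM + 0.1) in each mouse minus the mean of the 3 WT mice, for the 10 genes (above the line) and for the other pathway genes that the negative binomial Wald test called (below it). Colour and printed number give the same value. Wdfy1 is near 2 in each Crlf2-/- heart, Ticam1 and Myd88 lie within 0.3 of the WT mean in every heart, Irf3 is lowest in Crlf2-/- replicate 1 at -0.35, and Irf7 and Isg15 are highest in Crlf2-/- replicates 2 and 3.

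The upstream sequence of the target genes and of the members was compared for the interferon-stimulated response element, searched as GAAA, any 2 bases and GAAA on both strands in the 250 bases before the RefSeq start. Of 32851 mouse windows, 2.98% held it. Windows were at hand for 7 of the 10 genes, Tlr2, Tlr3, Tlr9, Ticam1, Myd88, Tbk1 and Irf3, and 1 of them, Myd88, held a match. None was at hand for Wdfy1, Tlr4 and Tlr7. Of the 7 TRIF and IRF3 target genes with a window, 5 held a match (Cxcl10, Ifit1, Ifit3, Isg15 and Rsad2). These genes were listed as interferon-linked targets, so their matches say nothing about the genotypes. The windows of Myd88, Isg15 and Ifit1 are printed because they set the 1 member with a match, whose level overlapped between the genotypes, beside a pair of target genes whose levels did not. Capitals mark the matches, bases are given 5′ to 3′ on the strand of the gene (RefSeq, GRCm38.p6), and bases annotated as exon in GENCODE M21 were left out. Myd88 is shown at chr9:119340042-119340268 (minus strand), Isg15 at chr4:156200819-156201068 (minus strand) and Ifit1 at chr19:34640639-34640870 (plus strand). The Myd88 window lies inside the span given above for that gene, so it precedes the RefSeq start but not the whole gene.
Myd88: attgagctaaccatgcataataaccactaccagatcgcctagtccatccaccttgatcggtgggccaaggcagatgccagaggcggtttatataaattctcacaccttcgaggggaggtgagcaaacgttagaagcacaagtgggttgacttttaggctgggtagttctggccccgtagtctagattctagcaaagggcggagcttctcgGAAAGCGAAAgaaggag
Isg15: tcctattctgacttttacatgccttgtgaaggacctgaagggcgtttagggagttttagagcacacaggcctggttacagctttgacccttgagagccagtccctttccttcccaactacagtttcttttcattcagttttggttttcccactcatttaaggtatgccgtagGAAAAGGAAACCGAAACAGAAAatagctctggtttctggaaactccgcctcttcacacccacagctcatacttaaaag
Ifit1: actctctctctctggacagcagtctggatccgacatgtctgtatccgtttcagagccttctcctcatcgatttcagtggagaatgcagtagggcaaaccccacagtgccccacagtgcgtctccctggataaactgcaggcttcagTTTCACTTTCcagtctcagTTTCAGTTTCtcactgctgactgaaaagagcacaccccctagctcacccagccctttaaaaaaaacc
The match in Myd88 begins 40 bases before the start. Isg15 holds 3 overlapping matches, and Ifit1 holds 2 in the other orientation. A match is a description of letters and does not show that a factor binds there.

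The closest relatives of Wdfy1 had log2 differences near 0. Wdfy2, Wdfy3 and Wdfy4, which encode other proteins with WD repeats and a FYVE or BEACH domain, had log2 differences of -0.14, -0.03 and -0.02. The 11 tested WDFY and FYVE relatives had a median of -0.02, and none was called by limma, voom or the negative binomial Wald test. Eea1 and Plekhf2, endosomal proteins with a FYVE domain, overlapped between the genotypes.

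Genes around Wdfy1 were examined by position alone. Of 46 other tested genes whose start lay within 5000 kb, 2 had an unadjusted p under 0.05, which is 4.35%, against 6.58% of all tested genes. The nearest 5 on the side of lower coordinates were Ap1s3 (log2 difference 0.47), Scg2 (-1.17), Kcne4 (0.04), Utp14b (0.27) and Acsl3 (0.16). On the other side Mrpl44, Serpine2, Gm5529, Fam124b and Cul3 lay between -0.26 and 0.09. Scg2, which encodes secretogranin, was counted at 27, 22 and 29 fragments in WT hearts and at 3, 17 and 9 in Crlf2-/- hearts. The groups did not overlap, and its adjusted p was 0.440 (limma). Gm10555, which lies inside Wdfy1 on the other strand, had 2 fragments in 1 library.

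**Figure D5:**
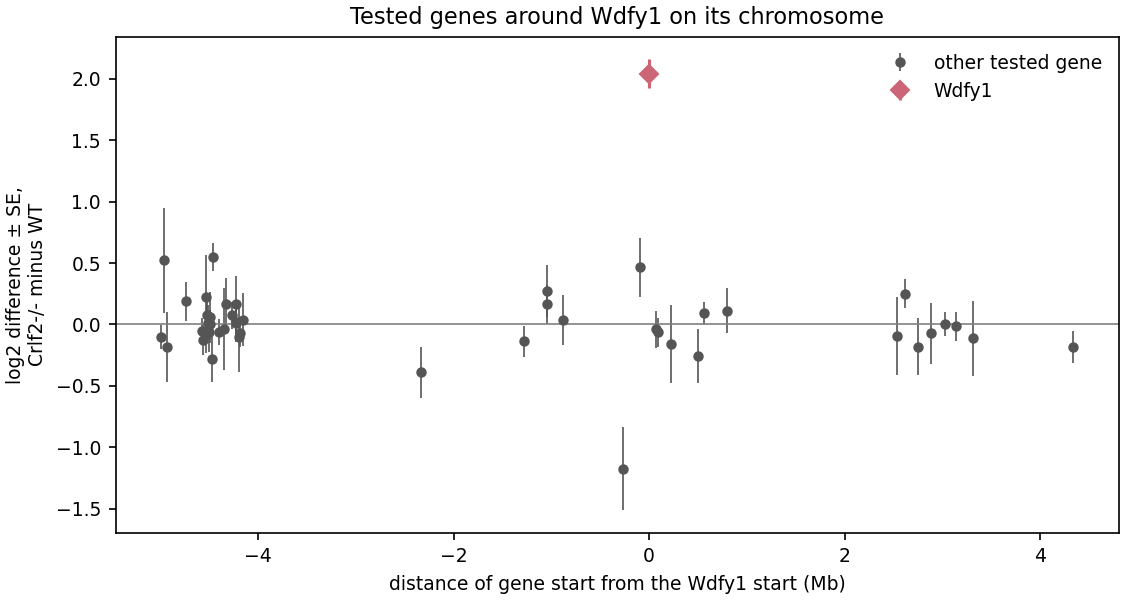
Log2 difference (Crlf2-/- minus WT, limma, with SE) of each tested gene against the distance of its start from that of Wdfy1 on the chromosome, in Mb. Wdfy1 (red diamond) is at 2.04, and Scg2, at -1.17, is the nearest gene with an unadjusted p under 0.05.

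Nnt, Entpd4 and Entpd4b were read as further genes known to differ between substrains of C57BL/6 mice, as Wdfy1 is. They were read since the groups may come from different sources. Nnt, which carries a deletion in C57BL/6J, had 1 to 9 fragments per library in both groups. Entpd4 had at most 2 fragments in any library. Its near-identical neighbour Entpd4b, with which reads can be shared, was counted at 18, 21 and 25 fragments in WT hearts and at 144, 31 and 100 in Crlf2-/- hearts. These did not overlap, with a log2 difference of 1.30 (adjusted p = 0.545 by limma and 0.00129 by the negative binomial Wald test). Whether the source of the mice has a part in these values or in those of Wdfy1 was not tested.

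Over the 6 libraries, the genes whose pattern lay nearest to that of Wdfy1 were Recql4, Slfn1, Gm43088, 4930512H18Rik and Ifi213, with a root mean square distance between centred log2 values of 0.367 to 0.442. Recql4, a DNA helicase gene, had 0.360, 0.287 and 0.337 FPKM in WT and 1.36, 0.810 and 1.43 FPKM in Crlf2-/- hearts. Slfn1, of the Schlafen family, had 4.52, 3.64 and 5.15 FPKM in WT and 11.6, 17.9 and 11.2 FPKM in Crlf2-/- hearts. Since Wdfy1 was chosen for its step between the genotypes, a place near it mostly restates a gene's own log2 difference and shows no further likeness. Among 15519 genes, Tlr9 was nearest of the members at place 199, followed by Tlr3 at 902, Tlr7 at 2850 and Tbk1 at 3300. Tlr2, Tlr4, Ticam1, Irf3 and Myd88 lay between places 7628 and 10134.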

How the data were processed

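Per the study's methods, reads were trimmed, mapped with HISAT2 (version 2.0.5) and counted with featureCounts. The authors deposited FPKM values, fragments scaled to gene length and library size, beside gene lengths. The labels list the builds mm10 and hg38 without their role, and the positions of all 10 genes equalled GENCODE M21 (GRCm38). An extraction label mentions retina; tissue label and paper say heart.

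FPKM times gene length gave whole fragments for all nonzero values (tolerance 0.02). The kit's strand handling is not given in the sources used here. After scaling by the trimmed mean of M values, limma 3.58.1 (trend and robust, in R 4.3.3) was fitted to log2(FPKM + 0.1) for genes with at least 10 fragments in 3 libraries and 15 in total. This understates differences of low genes. Tests are two-sided over 3 mice per group. Alternatives were other scalings, pseudocounts and filters, a replicate block, left-out libraries, voom and a negative binomial Wald test written for this work. This Wald test treats the fitted spread of the counts as known and takes p from a normal curve, so its p-values can be too small. The table held 0 columns of other samples.

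Members and lists were chosen with earlier results of these data known. Named by rule were the members, Crlf2, pathway genes called by any test or with the highest level or smallest p of their list, position and pattern neighbours, and substrain genes. Mrpl44 and Gm10555 overlap Wdfy1. Ifnb1, Mavs, Tlr12, Sarm1, Cxcl10, Rsad2, Hgs and the WDFY genes were added after their values were seen.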

Additional observations from a re-analysis of the deposited data

How the results depend on the processing

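Wdfy1 stayed higher in Crlf2-/- hearts in all 15 alternatives, which describes the contrast that chose it. None of the other 9 genes was called in any alternative. The number of genes called, 2, depended on the setting: it was 6 without a filter (2 higher, 4 lower), 1 with 10 fragments in every library (0 lower, against 458 lower at an unadjusted p under 0.05), and 229 (124 higher, 105 lower) by the negative binomial Wald test. voom called 2 lower genes. Leaving out 1 library gave 1 to 14 called genes (1 to 4 higher, 0 to 10 lower), with 14 without Crlf2-/- replicate 1 and 5 without WT replicate 3. The negative binomial Wald test called 9 pathway genes other than Wdfy1, and leaving out 1 library gave 0 to 1. With the replicate number as a block, 4 genes were called, 3 of them lower; deviations of the libraries that share a number had correlations of -0.0163, 0.115 and 0.12, and the mice were treated as unpaired. Signs turned when libraries were left out for Tlr4 (-0.151 to 0.0538), Tlr2 (-0.0874 to 0.0399) and Irf3 (-0.154 to 0.0721). The cause was not tested. The scalings moved the median of all genes by at most 0.00768. With 3 mice per group, small differences of the receptors and adaptors were not detectable, and values near 10 fragments are limited by counting error.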
